A study of Equus caballus with 24 samples.

Results

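The 12 sarcoids of the series were divided into 2 sets of 6 by the level of a single gene, ENSECAG00000015342, and these sets are compared here across all other genes. The sets were chosen by a measured value, not by a label. Sarcoids with at least 20 CPM (read counts scaled to a common library size, with a correction for composition) formed the high set, which held sarcoids 65L, 67L, 71L, 74L, 2 and 9. Sarcoids below 5 CPM formed the low set, which held sarcoids 3, 4, 6, 10, 11 and 12. The series has 24 libraries in all, and the other 12 are skin controls, given here as the background level. Sarcoids are labelled tumour tissue and controls skin tissue of the horse. The labels used here give no breed, age, treatment, clinical form or body site for any piece, and nothing says that each piece came from its own animal, which means that a p-value here speaks of the variation among pieces of tissue that may share an animal. Libraries are named by the number in their title, and the labels do not say what the L in 4 titles stands for. The numbers 2, 3, 6, 9 and 11 occur in both tissues, and the labels do not say whether a shared number means a shared animal.

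The equine sarcoid is a locally invasive tumour of the fibroblasts of horse skin and is associated with bovine papillomaviruses. The virus's small membrane oncoprotein activates the receptor for platelet-derived growth factor, a growth signal for fibroblasts. The disease is known for its varied forms, from flat scaly plaques and wart-like growths to nodules and ulcerated fleshy masses, so tumours of one study can differ from each other.

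The files give Ensembl gene IDs without names, and the reference table of 39335 horse genes matched none of the 30371 IDs. The role of each gene is therefore not given here, at most 2 IDs are named in each direction beside the splitting gene, and the labelled tissue could not be checked against marker genes. In whole tissue, fewer cells of a type and less RNA per cell cannot be told apart. Reads counted in genes numbered 9673480 to 16255132 per sarcoid library.

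ENSECAG00000015342 defined the sets, so its levels are a description with no test. In the high set it lay at 748 CPM in sarcoid 74L, 466 CPM in sarcoid 67L, 417 CPM in sarcoid 9, 115 CPM in sarcoid 71L, 94.2 CPM in sarcoid 2 and 58.8 CPM in sarcoid 65L. In the low set it ran from 0.6254 CPM in sarcoid 11 over a median of 1.79 CPM to 2.03 CPM in sarcoids 4 and 6. The members nearest to the limits were thus sarcoid 65L at 58.8 CPM and sarcoids 4 and 6 at 2.03 CPM, with no tumour between them. The high set itself was spread out, with sarcoids 74L, 67L and 9 well above the other 3.

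Skin held the splitting gene at a median of 0.6254 CPM. Skin 2 and skin 16 stood highest among the controls, at 7.22 and 7.18 CPM, followed by skin 11 at 2.35 CPM. In the remaining 9 controls its level was 0.284 to 0.885 CPM. All 6 high tumours lay above every skin library, while the low set lay within the skin range.

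**Figure D1:**
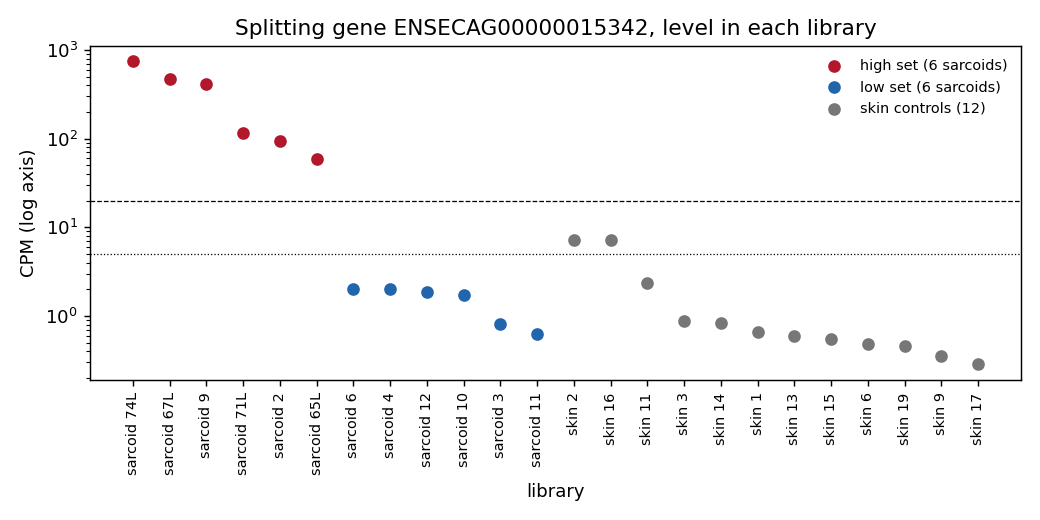
Level of ENSECAG00000015342 in CPM (log axis) in each of the 24 libraries, 1 point per library. The dashed line marks 20 CPM and the dotted line 5 CPM, the limits of the sets. No sarcoid lies between 2.03 and 58.8 CPM, and skin 2, skin 16 and skin 11 lie above the low set.

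In edgeR's test few other genes followed the split beyond the spread between tumours, and 8 of the 9 that did were higher in the high set. Of 14426 genes tested, 9 (0.0624%) passed a Benjamini-Hochberg adjusted threshold of 0.05 in the quasi-likelihood test of edgeR. Of these, 8 (0.0555%) were higher in the high set and 1 (0.00693%) was lower. The filter asked for counts in as many libraries as 1 set holds, so a gene could enter on 1 set alone, in either direction. All of the 8 but the gene with 1314 counts over the low set entered on the high set, with low-set totals of 1 to 95. Among them were ENSECAG00000017436 with 41 and ENSECAG00000013457 with 23 counts. The lean to higher genes among the calls is therefore given as a count only. With the filter over 24 libraries, which kept 6 of the 9, 4 genes were called higher and 1 lower. Without a filter 20 were called higher and 2 lower. The fitted log2 fold changes of the 8 higher genes ran from 3.64 to 7.44 with a median of 6.03, beside a median of -0.03 over all genes tested. Their standard errors ran from 0.55 to 0.89. The test measures how each gene goes with a split made on these same tumours, and not the effect of a labelled condition.

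At an unadjusted p under 0.05 there were 1744 genes (12.1%), 791 higher and 953 lower. The number past the adjusted threshold depended on the tool. DESeq2 called 303 genes, 175 higher and 128 lower, and all 9 were among them. Limma's voom called 0 genes at the adjusted threshold and 1323 at an unadjusted p under 0.05. With sample quality weights voom called 203 genes, including 7 of the 9. All 9 genes kept their direction under each of these tools, which was close to given, since their sets did not overlap.

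**Figure D2:**
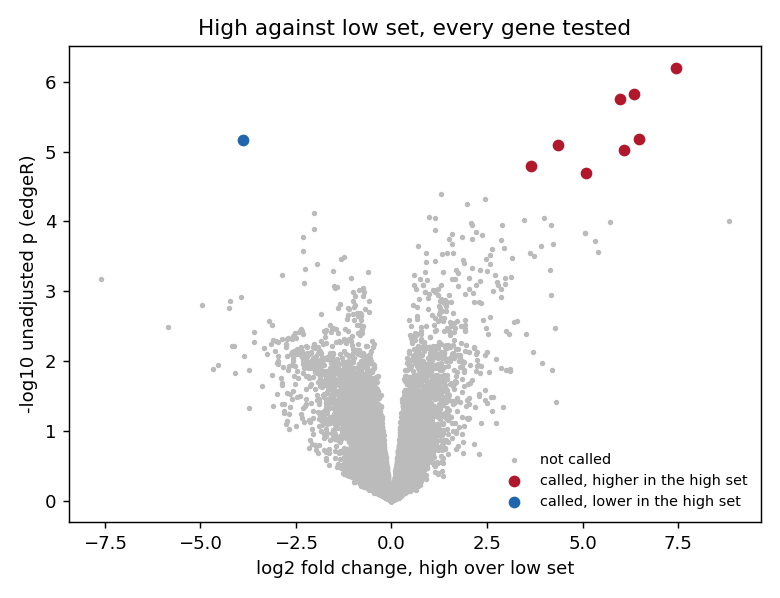
Fold change (log2, high over low set) against the unadjusted edgeR p (-log10) for the 14426 genes tested, 1 point per gene. The 8 genes called higher lie at log2 fold changes of 3.64 to 7.44, and the gene called lower lies at -3.87.

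ENSECAG00000017436 had the largest rise among the called genes that averaged at least 5 CPM in the higher set. Its lowest high-set level was 5.91 CPM in sarcoid 71L, rising over a median of 42.6 CPM and reaching 140 CPM in sarcoid 74L. Sarcoid 4 of the low set had no count, the low median was 0.551 CPM, and the highest low tumour was sarcoid 10 at 1.11 CPM. The sets did not overlap, and sarcoids 74L, 67L and 9 again stood above the other 3 of the high set. The means were 52.7 ± 51.9 CPM and 0.537 ± 0.408 CPM (SD, n = 6 each), and log2 fold change was 6.48 with an SE of 0.89 (adjusted p = 0.0191, edgeR). In skin the median of ENSECAG00000017436 was 0.867 CPM, and skin 2 and skin 16 were the highest controls at 8.53 and 7.28 CPM. The call for this gene was lost without sarcoid 4, 6, 11, 12 or 67L (adjusted p from 0.0516 to 0.0865), with log2 fold changes of 6.30 to 6.59, and in voom (5.997, adjusted p = 0.283).

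ENSECAG00000013457 was highest in the same 3 tumours. In the high set it ran from 5.51 CPM in sarcoid 71L over a median of 27.9 CPM to 55.1 CPM in sarcoid 67L. In the low set it ran from 0.102 CPM in sarcoid 3 over a median of 0.312 CPM to 0.668 CPM in sarcoid 10, which is 1 to 9 counts per library. The lowest high tumour thus lay above the highest low tumour. The means were 28.7 ± 23.3 CPM and 0.341 ± 0.201 CPM (SD, n = 6 each), and log2 fold change was 6.34 with an SE of 0.76 (adjusted p = 0.00856, edgeR). Skin ran from 0.551 to 7.48 CPM with a median of 1.36 CPM, so the median control held more of this transcript than any low tumour. Skin 16 was its highest control. The call for ENSECAG00000013457 held in each edgeR fit that left out 1 tumour. It was lost in voom (5.76, adjusted p = 0.233) and in voom with quality weights (5.94, adjusted p = 0.0585).

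The other 6 genes called higher showed the same separation. Their fitted log2 fold changes ran from 3.64 to 7.44, and their adjusted p from 0.00856 to 0.0325. Set means ran from 4.38 to 226 CPM in the high set and from 0.0113 to 18.1 CPM in the low set. Over the 8 higher genes the lowest high tumour was 2.17 to 22.4 times the highest low tumour, with a median of 4.82 times. The gene with the fitted value of 7.44 had 1 count in the 6 low libraries together and 328 in the high set. Its ratio of scaled counts was 288, with an exact 95% interval of 51.4 to 11419 that covers counting error only.

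**Figure D3:**
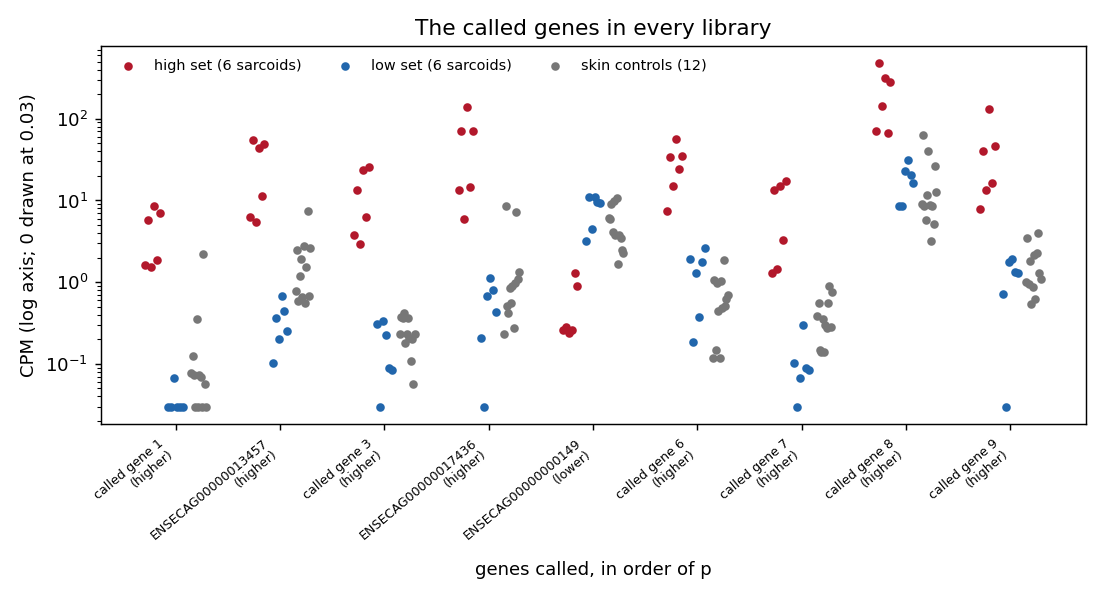
Level in CPM (log axis, 0 drawn at 0.03) of the 9 called genes in every library, ordered by p. The 6 high tumours lie above the 6 low tumours in 8 genes and below them in ENSECAG00000000149, and the skin medians lie below the 6 high tumours in the 8. Single controls reach the high set in some of the 8.

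The 8 genes shared their 3 highest tumours within the high set, a pattern noticed after the values were seen. Sarcoids 74L, 67L and 9 held the 3 highest levels in 8 of the 8 genes, as they did for the splitting gene, with 74L first in 4 genes and 67L and 9 in 2 each. Over all genes tested the same 3 tumours were the highest of the high set in 679 (4.71%). Sarcoid 71L was the lowest high tumour in 4 of the 8 genes, sarcoid 65L in 3 and sarcoid 2 in 1. Because the high set falls into 3 tumours at 417 to 748 CPM and 3 at 58.8 to 115 CPM of the splitting gene, no correlation with it within the set is given.

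The summed level of the 8 genes shows the same steps. It was 729 CPM in sarcoid 74L, 713 CPM in sarcoid 67L and 531 CPM in sarcoid 9. Sarcoids 71L, 2 and 65L held 191, 146 and 113 CPM. Among the low tumours sarcoid 4 was the lowest at 9.22 CPM, and sarcoid 10 the highest at 35.7 CPM. These are sums over genes called on the same tumours and are given as a description. In sarcoid 74L the 8 genes took 0.0759% of the gene counts.

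The skin median lay below every high tumour in each of these genes. Single controls reached the level of the lowest high tumour, skin 16 in 3 of the 8 genes and skin 2 in 1. The summed level over the 12 controls had a median of 16.3 CPM, beside 23.2 CPM in the low set and 361 CPM in the high set. A single gene made up most of that sum, with 480 of 713 CPM in sarcoid 67L and 31.1 of 35.7 CPM in sarcoid 10. On the mean log2 CPM of the 8 genes, which weights them alike, skin lay between -0.80 and 1.17, the low set between -1.75 and -0.07, and the high set between 2.72 and 5.67. The order of skin and the low set thus depended on the measure. On this mean skin 16 (1.17) and skin 2 (1.14), the 2 controls with the most of the splitting gene, stood highest, and the other 10 lay at or below 0.21. Skin 11, the next control for the splitting gene at 2.35 CPM, lay at -0.47. Over those 10 controls the Spearman correlation of this mean with the splitting gene was negative (-0.564, permutation p = 0.0975). Other than skin 11, these controls held only 5 to 17 counts of the splitting gene. The correlation therefore cannot decide whether the 8 genes follow it in skin. The skin libraries entered the scaling factors but were in neither set and in no test that called the genes.

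ENSECAG00000000149 was the only gene called lower in the high set by edgeR. In the low set it ran from 3.17 CPM in sarcoid 3 over a median of 9.47 CPM to 11.1 CPM in sarcoid 4. In the high set it ran from 0.240 CPM in sarcoid 71L over a median of 0.271 CPM to 1.30 CPM in sarcoid 2. The 4 tumours with an L held 3 or 4 counts each, while sarcoid 9 held 9 and sarcoid 2 held 20. The means were 0.541 ± 0.453 CPM and 8.10 ± 3.39 CPM (SD, n = 6 each), and log2 fold change was -3.87 with an SE of 0.53 (adjusted p = 0.0191, edgeR). Skin ran from 1.65 to 10.6 CPM with a median of 3.96 CPM, so every high tumour lay below every control. The call for ENSECAG00000000149 was lost without sarcoid 4, 11, 12 or 67L (adjusted p from 0.0516 to 0.0755), with scaling by library totals alone (adjusted p = 0.0568) and in voom (adjusted p = 0.106). The log2 fold change was -3.74 to -3.82 in the first 4 fits, -3.47 with totals and -3.95 in voom.

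ENSECAG00000013893, the next lower gene by p, missed the threshold (log2 fold change -2.02 ± 0.36 SE, edgeR adjusted p = 0.0718). It had 103 CPM in sarcoid 6, a median of 163 CPM and 264 CPM in sarcoid 4 within the low set. In the high set it had 19.9 CPM in sarcoid 74L, a median of 41.9 CPM and 76.3 CPM in sarcoid 9, so the sets did not overlap. The median of ENSECAG00000013893 in skin was 130 CPM. Its adjusted p ranged from 1.38e-05 in DESeq2 to 0.541 in a test against a 2-fold change, and was 0.112 in voom. It passed in 7 of 32 alternatives, 1 of which was the looser limit of 0.1, and in no fit that left out 1 tumour.

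Separation of the sets without regard to a test was found in 111 genes (0.769%). Every high tumour lay above every low tumour in 81 genes (0.561%) and below in 30 (0.208%). Most of these gaps were narrow. The lowest tumour of the upper set was in the median 1.13 times the highest of the lower set among the 81, and 1.07 times among the 30. The median log2 fold change was 1.22 for the 81 genes and -0.99 for the 30, and 8 and 1 of them were called. In 51 of the 81 genes the skin median was nearer to the low set, and in 30 nearer to the high set. Of the 30 genes below, skin was nearer to the low set in 18, and of all genes tested in 52.3%. Every control lay below every high tumour in 21 of the 81, beside 740 (5.13%) of all genes tested, and above every high tumour in 5 of the 30, beside 421 (2.92%). These genes were picked for how the high set lay, so nothing is read from the shares.

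The count of separated genes rose when a tumour was left out, since fewer tumours have to stay apart. It rose by over 1.5 times without sarcoid 2 (248 genes), 71L (243), 6 (232), 3 (210) or 9 (171). With libraries scaled by their total alone it was 63 genes, 53 above and 10 below. That scaling shifted the median over all genes from -0.03 to 0.15 (log2 fold change).

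Most of the larger fold changes were found in genes whose sets overlapped. At 8-fold or more, 36 genes were higher and 29 lower in the high set, and the sets overlapped in 20 of the 36 and 28 of the 29. None of these overlapping genes was called (lowest edgeR adjusted p = 0.0749 for the higher and 0.117 for the lower genes). In 26 of the 28 lower genes 1 tumour held more than 50% of the low set's summed level. Sarcoid 4 was that tumour in 17 genes and sarcoid 12 in 6. Among the 20 higher genes 1 tumour held such a share in 6, and sarcoid 67L was the highest in 9.

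The title letter overlaps with the split. All 4 tumours with an L were in the high set and none in the low set, so within the L titles there is no comparison, and only sarcoids 2 and 9 carry the high level without an L. Among the 8 tumours without an L, 6 genes were called in edgeR, all higher in sarcoids 2 and 9, and 4 of them were among the 8. With only the L titles as the high set, 4 of the 9 genes were called and no others. A split by the letter alone, 4 against 8 tumours, called 0 genes in edgeR, with 1323 at an unadjusted p under 0.05. No other tool was run on that split.

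The called genes were also measured in each kind of title against the same low set. In the 8 higher genes both values differed by less than the larger of their standard errors, and the difference itself was not tested. These genes were called with both kinds of title in the high set, and both values share the low set. Their closeness was therefore partly built in. ENSECAG00000017436 was higher by 6.61 ± 0.93 on the log2 scale (SE, edgeR adjusted p = 0.0558) in the L titles and 6.19 ± 0.77 (adjusted p = 0.0508) in sarcoids 2 and 9. ENSECAG00000013457 had 6.30 ± 0.78 (SE, edgeR adjusted p = 0.0305) and 6.42 ± 0.62 (adjusted p = 0.0261). ENSECAG00000000149 differed more, with -4.91 ± 0.48 (SE, edgeR adjusted p = 0.0103) in the L titles and -2.85 ± 0.62 (adjusted p = 0.257) in sarcoids 2 and 9. Whether the letter has a part in that gap was not tested.

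**Figure D4:**
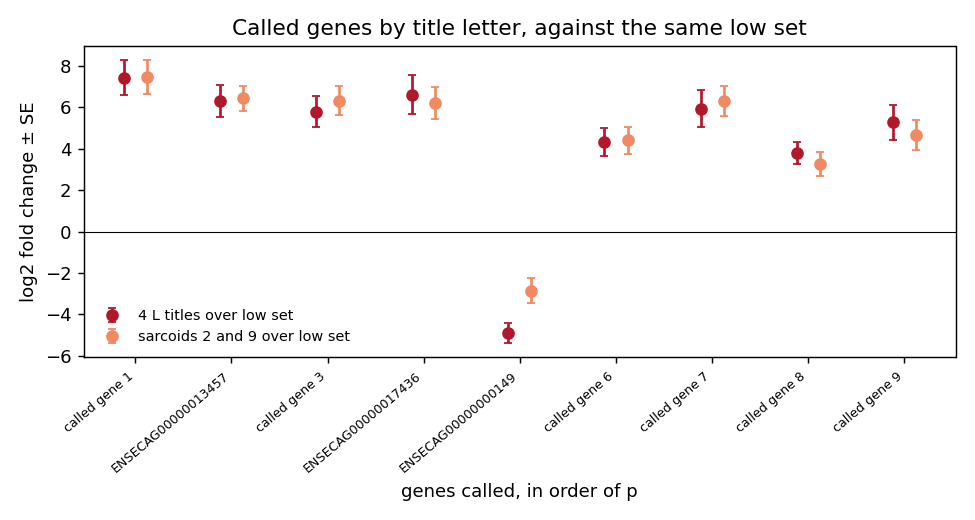
Log2 fold change ± SE of the 9 called genes, for the 4 tumours with an L and for sarcoids 2 and 9, each over the 6 low tumours. In the 8 higher genes the 2 values lie within the larger SE of each other, and ENSECAG00000000149 lies at -4.91 and -2.85. The genes were called with both kinds of title in the high set.

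Each tumour was then placed on genes chosen without it. The fit was repeated without that tumour, and its position on the called genes was set so that 0 is the mean of the remaining low set and 1 that of the remaining high set on the log2 CPM scale. The left-out high tumours lay at 1.35 (74L), 1.24 (9), 1.23 (67L), 0.66 (2), 0.63 (65L) and 0.40 (71L). The left-out low tumours lay between -0.18 (sarcoid 4) and 0.14 (sarcoid 10), except sarcoid 3 at 0.44. Thus 11 of 12 tumours were nearer to their own set, and sarcoid 71L, although in the high set, was nearer to the low set. Each fit has its own genes and scale, so positions from different fits cannot be ranked against each other. Medians of the skin libraries on these scales ran from 0.06 to 0.22.

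The number of genes that carried these positions was small and moved with the tumour left out. It was 45 without 71L, 15 without 2, 14 without 3, 12 without 65L, 10 without 10, 9 without 74L and 7 without 9. It was 4 without 4 or 12 and 3 without 67L, 6 or 11. Of the 9 genes called over all tumours, 3 to 9 were called in these fits. All 9 kept their direction in each, as they had to, since their sets did not overlap. On the 200 genes with the smallest p in each fit, 11 of 12 tumours were again nearer to their own set. The high tumours then lay between 0.38 (71L) and 1.25 (67L) and the low tumours between -0.11 (sarcoid 4) and 0.38 (sarcoid 3), each on its own scale.

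**Figure D5:**
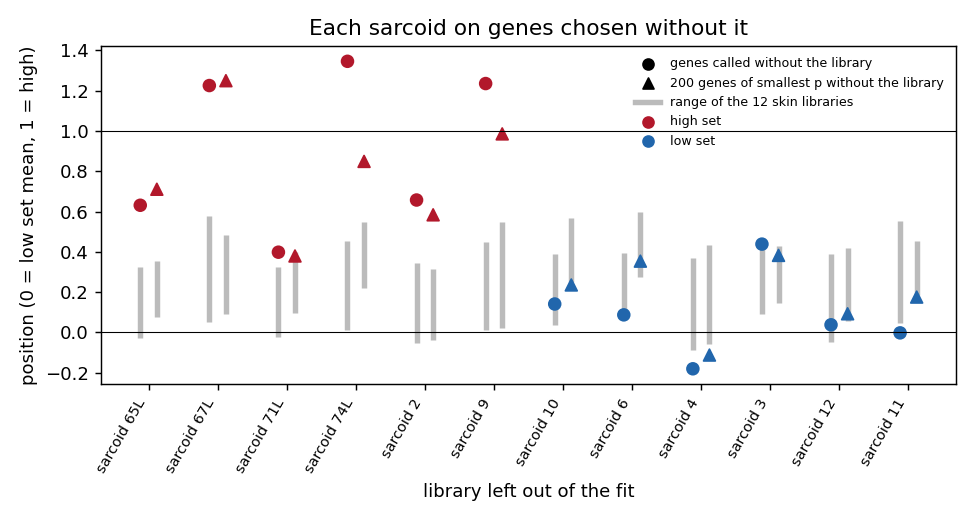
Position of each sarcoid between the low set (0) and the high set (1) on genes chosen without that sarcoid, as called genes (circles) or the 200 of smallest p (triangles). Grey bars span the 12 skin libraries, and sarcoid 71L, at 0.40 on called genes, is the only sarcoid nearer to the other set. Each position has its own genes and scale.

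Each kind of title was then placed on genes chosen with the other. On the 4 genes called with the L titles as the high set, sarcoid 9 lay at 1.15 and sarcoid 2 at 0.81. On the 6 genes called between sarcoids 2 and 9 and the low set, the L tumours lay at 1.16 (74L), 1.08 (67L), 0.61 (65L) and 0.53 (71L). On the 200 genes of smallest p from sarcoids 2 and 9 the L tumours spread further, from 0.92 in 67L and 0.64 in 74L to 0.44 in 65L and 0.11 in 71L. Skin had medians of 0.18, 0.13 and 0.26 on these 3 scales, so 71L lay below the skin median on the last. On the 200 genes of smallest p from the L titles, sarcoid 9 lay at 0.92 and sarcoid 2 at 0.56. The skin median there was 0.10.

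The expression profile as a whole did not part cleanly at the split. The median Spearman correlation across the genes tested was 0.912 within the high set, 0.907 within the low set and 0.905 between the sets. With skin it was 0.814 for the high set and 0.823 for the low set. The first principal component of the sarcoids held 36.8% of the variance and ran from sarcoid 6 to sarcoid 4, both in the low set. On the second, with 16.7%, sarcoids 9, 74L and 67L lay lowest, between -65.1 and -44.3. The low set lay between -3.98 and 73.7 there, and sarcoids 71L, 65L and 2 lay at -8.15, -7.33 and 11.4, the last of them within the low set. The biological coefficient of variation was 0.471 in the high set (0.444 to 0.496 with 1 tumour left out) and 0.536 in the low set (0.442 to 0.570).

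None of 8 library measures passed the threshold between the sets. Gene counts averaged 12610650 ± 1970487 in the high set and 12489457.5 ± 1942946 in the low set, and 19616 ± 693 against 19178.5 ± 1308 genes were detected (SD, n = 6 each). Reads aligned to several places were 3.80% ± 1.27 and 8.01% ± 8.11 of all reads, with sarcoid 4 at 23.9%. Over these measures the lowest adjusted p was 0.681 in two-sided exact permutation tests, whose smallest possible p is 0.00216. A miss of the threshold does not show that these measures are equal.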

How the data were processed

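RNA of 12 sarcoids and 12 skin controls was sequenced after depletion of ribosomal RNA. FastQC, HTSeq, TopHat2 and DESeq2, and the build EquCab3.0, come from the submitters' processing notes. How strand was handled, and which annotation was used, is not given in the sources used here. Deposited were raw counts per gene. The authors' files also hold 5 summary rows that name no gene, with 72.6% to 86.6% of all counts, and none of these rows entered a library size or a test. Gene counts leave out multiply aligned reads, so genes with near-identical copies, and overlapping or antisense genes, are uncertain.

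In R 4.3.3, edgeR 4.0.16 gave TMM factors over the 24 libraries after filterByExpr with the tissue (14930 genes), and CPM on these sizes formed the sets. For the comparison, genes were kept by filterByExpr over the 12 sarcoids with a smallest set of 6, since the filter over 24 libraries removes genes counted in few of them. The splitting gene was removed before adjustment, leaving 14426. Standard errors are the log2 fold change over the square root of F, and log2 CPM had a prior count of 2. Among called, non-overlapping genes with at least 5 CPM in the higher set, the 2 largest changes per direction were named. With only 1 such lower gene, the next lower gene by p was added. The members, gene lists and rules were chosen with earlier results of these data known. Gene lists and cell type markers need names and were not applied. No 2 sarcoids agreed within sampling noise (smallest chi-square per degree of freedom 37.5 over 66 pairs). Alternatives used limma 3.58.1, DESeq2 1.42.0, other scaling and filters, thinning, and fewer libraries. Figures used matplotlib 3.10.9.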

Additional observations from a re-analysis of the deposited data

Results flagged for a closer look

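Among 24 sets of 6 values examined (4 named genes and 8 library measures in each set), 5 had a tumour far from the others of its set, where chance gives about 1 in 20. None of the 4 named genes was among them. In the low set, sarcoid 12 had 16255132 gene counts, with the next at 12803192. Sarcoid 4 had 5.997% of reads in several genes against 1.41% in the next, and 23.9% aligned to several places against 8.81%. In the high set, sarcoid 2 had 35.9% of reads outside annotated genes against 26.5%, and a TMM factor of 1.5999 against 1.0431. Their part in the called genes was not tested beyond leaving these tumours out. With sarcoid 4 or sarcoid 12 left out 4 of the 9 genes were called, and with sarcoid 2 left out all 9.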

How the results depend on the processing

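The count of 9 genes called between the sets stayed at 9 with TMM factors over the sarcoids alone, RLE or upper-quartile factors, a robust fit, and a filter of 1 CPM in 6 sarcoids. It was 10 after thinning, 7 against a 2-fold change and 6 without the L titles. It moved further under other settings. It was 14 with library size alone, 22 with no filter and 15 without sarcoids 2 and 4. The filter over 24 libraries gave 5, and it held only 6 of the 9 genes. DESeq2 gave 303, voom 0, voom with quality weights 203, a fit of 3 groups with skin 265 (111 higher and 154 lower, against 8 and 1), and the splitting gene as a continuous covariate 69. The L titles against the low set gave 4, and the L titles against the other 8 sarcoids 0. At an adjusted p under 0.1, a limit added after seeing the data, 61 genes passed, 53 higher and 8 lower. Leaving out 1 tumour gave 3 to 45. The cause of these moves was not tested. The 9 genes kept their direction in every alternative that tested all of them. Since their sets did not overlap, most alternatives could hardly change it, and nothing is read from this. The 111 separated genes became 63 with library size alone and 130 to 248 with 1 tumour left out. No library measure passed in any alternative (0 in each). Without the L titles no measure could pass, since the smallest possible p of that permutation test was 0.0714. No paired analysis was possible because the sets share no specimen number. With 6 tumours a set and low counts in the low set, the size of the largest rises is the least certain value.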
